A study of Mus musculus with 22 samples.

Results

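Macrophage identity and C1q genes are described here in leukemic cells with and without NFKBIE that were grown in mice and in culture. The 10 genes were chosen by name as known genes of macrophages (Adgre1, Itgam, Csf1r, Mertk, Marco, Cd5l, C1qa, C1qb, C1qc and Cd68), with earlier results of these data known. They are 10 of the 17023 genes to which the transcripts of the count table were summed, and 24 of its 62492 transcripts belong to them. The cells were TCL1-355 TKO, a murine leukemia B-cell line from the Eμ-TCL1 mouse, a model of chronic lymphocytic leukemia in which a human oncogene is driven in B cells. NFKBIE, the gene of the NF-κB inhibitor IκBε, was targeted in exon 2 with CRISPR/Cas9 (NFKBIE-ko), and mock-edited cells served as controls (NFKBIE-wt). Both genotypes carried the lesions of tumour suppressor genes with which the line was made. The genotypes were first propagated separately for 21 days, in 2 C57BL/6 mice per the paper. The cells were then transplanted intraperitoneally into C57BL/6 recipients, 5 per genotype, which kept their own immune cells. If each genotype had a single donor mouse, effects of genotype and of donor cannot be told apart. On day 10 cells were washed from the peritoneal cavity (PC) or obtained from ground spleen after lysis of red cells, and they were not purified, so that host cells remained among the leukemic cells. Further cells, which per the paper had been taken from spleens of 3 mice, were cultured separately in vitro for 2 weeks. There were 4 libraries each of NFKBIE-wt PC, NFKBIE-ko PC, NFKBIE-wt spleen and NFKBIE-ko spleen, and 3 libraries of each genotype in vitro. The labels call the tissue blood and do not say whether PC and spleen samples came from the same mice, or whether replicates were separate animals, so that p-values measure the spread between these libraries only.

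Macrophages are tissue-resident phagocytes that depend on signals through the CSF1 receptor and that take on different programmes in different tissues. Those of the peritoneal cavity are known for the transcription factor GATA6, while those of the splenic red pulp depend on SPIC and recycle iron from red cells. C1q, the recognition unit of the classical complement pathway, is built from A, B and C chains and is made mainly by macrophages rather than by the liver. C1q, CD5L, MERTK and MARCO all take part in the recognition of dying cells or microbes.

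The C1q genes lie side by side on the minus strand of chromosome 4 (GRCm39), with C1qb at chr4:136606009-136613511, C1qc at chr4:136616466-136620376 and C1qa at chr4:136623223-136626161, each with 3 exons in its canonical transcript. The other members lie on other chromosomes, and the 10 genes do not overlap each other. The promoters of 7 members were matched in RefSeq (GRCm38.p6), as 250 bases before to 50 after the start of the gene. Those of C1qb and C1qc, neighbours whose patterns over the in vivo libraries were the closest among all members, and of Cd5l, the member with the highest level per kilobase in the NFKBIE-ko PC, are shown 5′ to 3′ on the strand of the gene, with GAGGAA, or TTCCTC where it lies on the other strand, in capitals. GAGGAA is a core of the sites of PU.1, the ETS factor that specifies myeloid cells. The positions on GRCm38.p6 are chr4:136886151-136886450 (minus strand), chr4:136892865-136893164 (minus strand) and chr3:87357631-87357930 (plus strand).
C1qb: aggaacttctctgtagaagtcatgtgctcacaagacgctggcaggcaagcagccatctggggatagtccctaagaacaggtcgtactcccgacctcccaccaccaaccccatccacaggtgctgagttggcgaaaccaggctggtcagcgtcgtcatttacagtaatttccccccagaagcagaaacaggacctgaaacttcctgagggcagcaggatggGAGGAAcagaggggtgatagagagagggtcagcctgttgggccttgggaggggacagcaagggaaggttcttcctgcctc
C1qc: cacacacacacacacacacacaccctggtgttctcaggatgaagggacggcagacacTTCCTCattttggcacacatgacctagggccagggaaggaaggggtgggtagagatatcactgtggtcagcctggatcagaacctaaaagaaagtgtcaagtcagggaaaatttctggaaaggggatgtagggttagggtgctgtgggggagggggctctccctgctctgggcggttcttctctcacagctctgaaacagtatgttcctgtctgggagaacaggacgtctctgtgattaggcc
Cd5l: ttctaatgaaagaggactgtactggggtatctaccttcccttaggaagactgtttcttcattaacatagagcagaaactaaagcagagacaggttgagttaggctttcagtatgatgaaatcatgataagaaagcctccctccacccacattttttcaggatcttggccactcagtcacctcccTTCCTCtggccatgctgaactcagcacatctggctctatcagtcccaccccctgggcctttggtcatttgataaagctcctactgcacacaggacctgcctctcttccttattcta

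GAGGAA was found on one strand or the other in 6 of the 7 promoters (C1qb, C1qc, Cd5l, Cd68, Itgam and Marco, not Mertk), and in 28.3% of 32851 promoters of the same length. TGCTGA, part of the sites of MAF factors, was found on either strand in C1qb and Cd5l (19.5% of all promoters), and TTNNGCAA, a form of the C/EBP site, in Cd68 (10.8% of all promoters). These matches describe the letters of the windows and no binding was measured.

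Total estimated counts were 24036763 to 26581304 per library. Levels are given as CPM, counts scaled to the size of the library, after TMM normalisation over the 22 libraries. Nfkbie, the edited gene, was at 56.0, 59.9 and 48.1 CPM in the NFKBIE-ko and 117, 141 and 54.3 CPM in the NFKBIE-wt cultures, and at 47.2 to 64.9 CPM in NFKBIE-ko against 67.3 to 91.2 CPM in NFKBIE-wt libraries of the PC and 54.2 to 120.3 against 70.9 to 124 CPM in the spleen, where the genotypes overlapped. Reads of an edited gene can persist, so that its level checks the labels in part. In all, 2 libraries stood apart from their labels. Over 11421 genes outside all lists used here, the library carrying the label NFKBIE-wt spleen replicate 4 lay nearest to NFKBIE-wt in vitro replicate 1 (root mean square difference of 0.365 on the log2 scale, against 0.703 to the nearest library of its own group). The library carrying the label NFKBIE-wt in vitro replicate 3 lay nearest to NFKBIE-wt spleen replicate 1 (0.347 against 0.759). The libraries were kept under their labels. Calls of the members that rest on these libraries are given with and without them. Single values with no second value beside them are from all libraries.

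The members differed between these libraries and the rest of their groups. The library carrying the label NFKBIE-wt spleen replicate 4 held 0 counts of C1qa, C1qc and Marco and 1 count each of C1qb and Cd5l, where 0 counts allow up to 0.116 CPM (3 counts, counting error only), but 332 counts of Adgre1. The library carrying the label NFKBIE-wt in vitro replicate 3 held 169 counts of C1qa, 240 of C1qb, 172 of C1qc and 224 of Cd5l, and 65 of Adgre1. Summed erythroid markers were at 1.35 CPM in the former, against 216 to 1456 CPM in the rest of its group, and at 1061 CPM in the latter, against 5.71 CPM or less in the other cultures. Nfkbie was at 124 CPM in the former, against 70.9 to 76.8 CPM in the rest of its group. The NFKBIE-wt cultures other than the latter held 117 and 141 CPM. In the latter Nfkbie was at 54.3 CPM, within the range of the NFKBIE-ko cultures. In the other 5 cultures C1qa was at 0 to 0.0804 CPM and Cd5l at 0 to 0.483 CPM.

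**Figure D1:**
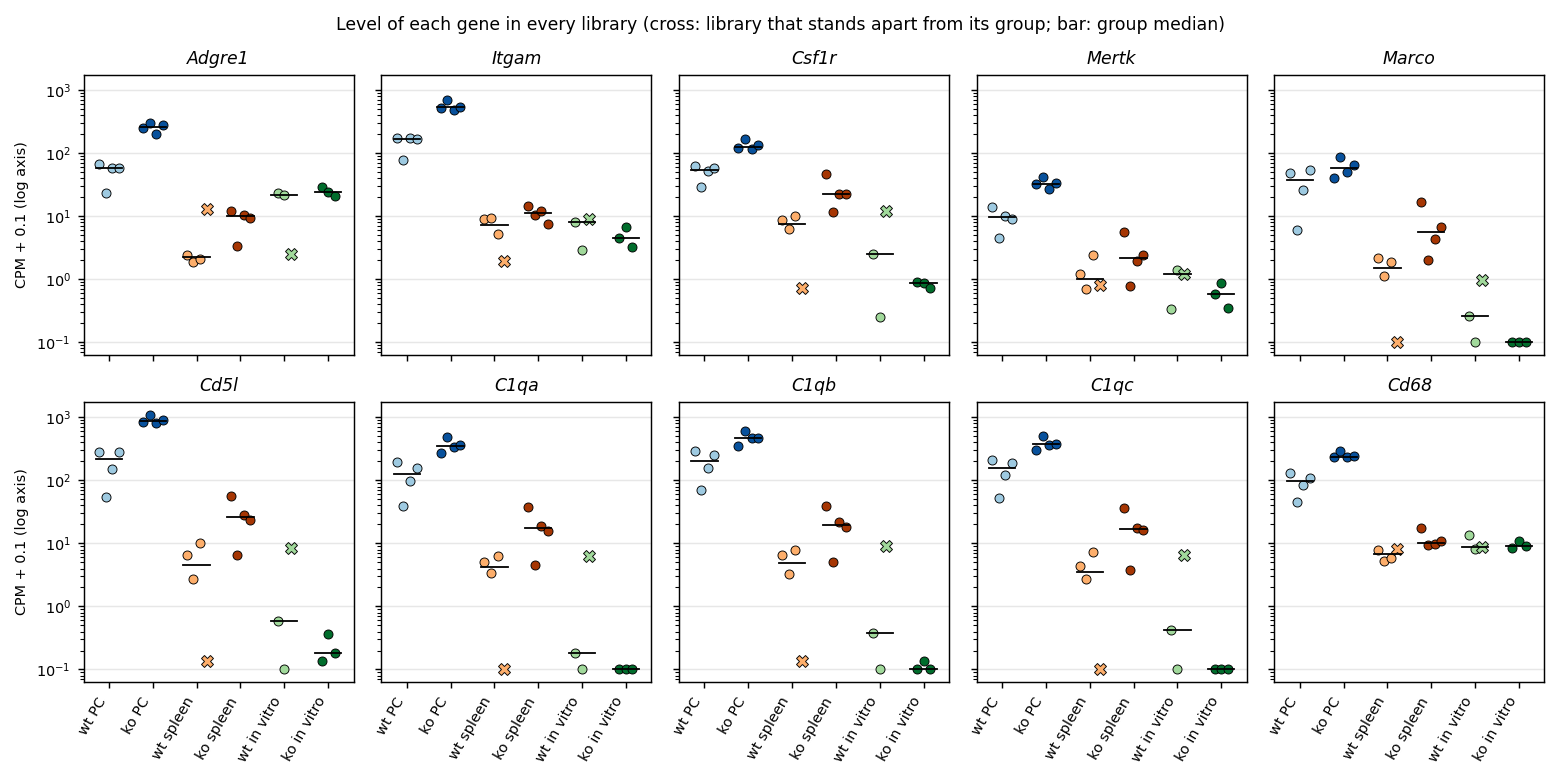
Level of each of the 10 genes (CPM plus 0.1, log axis) in each of the 22 libraries by group, with bars for group medians and crosses for the libraries that stood apart from their labels. PC libraries lie above spleen libraries of the same genotype for every gene, and the C1q genes, Cd5l and Marco are at or near 0 in the NFKBIE-ko cultures.

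All 10 members were higher in the PC than in the spleen, in both genotypes. In NFKBIE-wt libraries the differences ranged from 8.004-fold for Csf1r to 44.9-fold for C1qb. Without the library carrying the label NFKBIE-wt spleen replicate 4 they ranged from 6.14-fold for Csf1r to 33.6-fold for C1qb. In NFKBIE-ko libraries they ranged from 5.19-fold for Csf1r to 50.5-fold for Itgam. The summed level of the 10 genes was 399 to 1468 CPM in the NFKBIE-wt PC, 2971 to 4298 CPM in the NFKBIE-ko PC, 24.02 to 58.6 CPM in the NFKBIE-wt spleen (35.6 to 58.6 CPM without replicate 4) and 56.3 to 284 CPM in the NFKBIE-ko spleen. In bulk samples a change in the number of macrophages and a change in the RNA per macrophage cannot be told apart. Nor can reads from other cells, the leukemic cells included, and Adgre1, Cd68 and Itgam had reads in every culture. The comparison of PC with spleen asks how much RNA of these genes the cells recovered from each site carried. Genes were tested with edgeR's quasi-likelihood test and called at an adjusted p (Benjamini-Hochberg over all genes tested) below 0.05 with a log2 fold change beyond 1.

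Among the receptors that identify macrophages, Adgre1 encodes F4/80, the surface protein by which murine macrophages are usually recognised. It was at 65.8, 23.5, 56.9 and 57.5 CPM in the 4 NFKBIE-wt PC libraries and at 248.8, 298, 197 and 277 CPM in the 4 NFKBIE-ko PC libraries. In the spleen it was at 2.33, 1.78, 1.95 and 12.8 CPM in NFKBIE-wt and 11.98, 3.19, 10.2 and 9.36 CPM in NFKBIE-ko libraries. No PC library fell as low as a spleen library of either genotype. The log2 fold change, PC over spleen, was 3.46 (SE 0.70, adjusted p of 0.00816) in NFKBIE-wt, 4.67 (SE 0.38, adjusted p of 0.000108) without the library carrying the label NFKBIE-wt spleen replicate 4, which held the highest splenic value, and 4.87 (SE 0.35, adjusted p of 3.87e-06) in NFKBIE-ko.

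Itgam encodes CD11b, the α chain of complement receptor 3, which binds cells coated with fragments of C3. Its levels were 175, 76.5, 171 and 164 CPM in the NFKBIE-wt PC and 524, 704, 478 and 535 CPM in the NFKBIE-ko PC. In the spleen they were 8.92, 9.26, 5.11 and 1.82 CPM in NFKBIE-wt and 14.4, 10.4, 12.1 and 7.27 CPM in NFKBIE-ko libraries. The NFKBIE-wt PC replicate 2 was low within its group, but still above all spleen libraries. Itgam rose by 4.57 (SE 0.52, adjusted p of 0.000771) on the log2 scale from NFKBIE-wt spleen to PC and by 5.66 (SE 0.23, adjusted p of 2.11e-07) in NFKBIE-ko.

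Csf1r encodes the receptor of CSF1 and IL-34, on which macrophages depend for survival. It was at 62.1, 28.7, 50.8 and 57.7 CPM in the NFKBIE-wt PC and 119.9, 167, 117 and 132 CPM in the NFKBIE-ko PC. The spleen libraries held 8.55, 6.11, 10.1 and 0.619 CPM in NFKBIE-wt and 46.7, 11.3, 22.6 and 21.9 CPM in NFKBIE-ko. Csf1r had the smallest ratio of PC to spleen of the members, and in NFKBIE-ko the highest spleen library, replicate 1, lay above the lowest library of the NFKBIE-wt PC though not of the NFKBIE-ko PC. Its log2 fold change was 3.001 (SE 0.65, adjusted p of 0.0104) in NFKBIE-wt (2.62 without NFKBIE-wt spleen replicate 4) and 2.38 (SE 0.36, adjusted p of 0.000319) in NFKBIE-ko.

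Of the genes for uptake, Mertk encodes a receptor tyrosine kinase that binds apoptotic cells through bridging proteins such as GAS6. In the PC its levels were 14.1, 4.37, 9.75 and 9.03 CPM in NFKBIE-wt and 31.9, 41.2, 26.9 and 33.5 CPM in NFKBIE-ko libraries. In the spleen they were 1.08, 0.607, 2.30 and 0.696 CPM and 5.55, 0.670, 1.82 and 2.32 CPM, respectively. PC and spleen did not overlap within a genotype. The log2 fold change was 3.01 (SE 0.50, adjusted p of 0.00322) in NFKBIE-wt and 3.67 (SE 0.47, adjusted p of 0.000112) in NFKBIE-ko. Marco encodes a scavenger receptor for bacteria and particles. It was at 47.5, 5.88, 26.1 and 53.4 CPM in the NFKBIE-wt PC, where replicate 2 was the low end of a wide spread, and at 40.3, 87.0, 50.4 and 63.7 CPM in the NFKBIE-ko PC. In the spleen it was at 2.09, 1.01, 1.76 and 0 CPM in NFKBIE-wt and 16.4, 1.89, 4.28 and 6.66 CPM in NFKBIE-ko libraries. PC libraries lay above spleen libraries of the same genotype, with a log2 fold change of 4.80 (SE 0.94, adjusted p of 0.00695) in NFKBIE-wt and 3.03 (SE 0.55, adjusted p of 0.000950) in NFKBIE-ko. The NFKBIE-wt value of Marco was 4.38 without NFKBIE-wt spleen replicate 4. Cd68 encodes a lysosomal glycoprotein of phagocytes. In the PC its levels were 129.7, 44.6, 85.1 and 111 CPM in NFKBIE-wt and 232, 291, 231 and 242 CPM in NFKBIE-ko libraries. In the spleen they were 7.79, 5.14, 5.77 and 7.97 CPM and 17.5, 9.33, 9.64 and 10.7 CPM, respectively. Cd68 had the smallest standard error of the members in both comparisons, at 3.82 (SE 0.34, adjusted p of 0.000328) in NFKBIE-wt and 4.39 (SE 0.21, adjusted p of 4.85e-07) in NFKBIE-ko.

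Of the secreted proteins, CD5L is a scavenger protein and inhibitor of apoptosis that macrophages release. Cd5l was at 279, 54.0, 154 and 284 CPM in the NFKBIE-wt PC and 841, 1105, 816 and 915 CPM in the NFKBIE-ko PC. In the spleen it was at 6.39, 2.67, 10.2 and 0.0387 CPM in NFKBIE-wt and 57.4, 6.498, 27.9 and 23.8 CPM in NFKBIE-ko libraries, so that the lowest NFKBIE-wt PC library was just below the highest NFKBIE-ko spleen library, while sites did not overlap within a genotype. The log2 fold change was 5.35 (SE 1.02, adjusted p of 0.00613) in NFKBIE-wt (4.93 without NFKBIE-wt spleen replicate 4) and 4.98 (SE 0.55, adjusted p of 4.61e-05) in NFKBIE-ko.

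The C1q chains had like patterns across libraries. C1qa was at 192, 39.2, 99.5 and 156 CPM in the NFKBIE-wt PC and 276, 486, 343 and 371 CPM in the NFKBIE-ko PC, against 4.98, 3.24, 6.24 and 0 CPM in the NFKBIE-wt and 38.4, 4.45, 19.1 and 15.9 CPM in the NFKBIE-ko spleen. C1qb was at 289, 70.9, 157 and 254 CPM and 351, 604, 477 and 472 CPM in the PC of NFKBIE-wt and NFKBIE-ko, against 6.43, 3.16, 7.88 and 0.0387 CPM and 39.3, 4.92, 21.5 and 18.2 CPM in their spleens. C1qc was at 213, 51.8, 123 and 192 CPM and 308, 515, 371 and 382 CPM in the PC, against 4.30, 2.63, 7.33 and 0 CPM and 36.0, 3.70, 17.6 and 15.9 CPM in the spleen, in the same order. For each chain NFKBIE-wt PC replicate 2 was the lowest and NFKBIE-ko PC replicate 2 the highest PC library, and NFKBIE-ko spleen replicates 1 and 2 were the highest and lowest libraries of the NFKBIE-ko spleen. PC over spleen, the log2 fold changes in NFKBIE-wt were 5.10 (SE 0.92, adjusted p of 0.00486) for C1qa, 5.49 (SE 0.94, adjusted p of 0.00388) for C1qb and 5.37 (SE 0.94, adjusted p of 0.00419) for C1qc. Without NFKBIE-wt spleen replicate 4 these NFKBIE-wt values were 4.68, 5.07 and 4.95, respectively. In NFKBIE-ko the log2 fold changes were 4.24 (SE 0.54, adjusted p of 0.000112), 4.50 (SE 0.52, adjusted p of 6.03e-05) and 4.42 (SE 0.55, adjusted p of 0.000105), respectively.

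Thus 10 of 10 members were called higher in the PC in NFKBIE-wt, where 7.92% of 12370 genes were (and 3.21% lower), and 10 of 10 in NFKBIE-ko, where 15.6% of 12628 genes were (and 6.46% lower). Without the library carrying the label NFKBIE-wt spleen replicate 4 the count in NFKBIE-wt was again 10, of 10% of the genes. The median log2 fold change of the members was 4.68 in NFKBIE-wt (-0.01 over all genes tested) and 4.404 in NFKBIE-ko (-0.01). Each member had all 4 PC libraries above all 4 spleen libraries, as did 16.2% of the genes in NFKBIE-wt (20.9% without that library) and 28% in NFKBIE-ko. With 1 transcript in place of the sum per gene, the NFKBIE-wt calls of Itgam (adjusted p of 0.0605), Csf1r (0.130) and Mertk (0.0507) were lost.

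**Figure D2:**
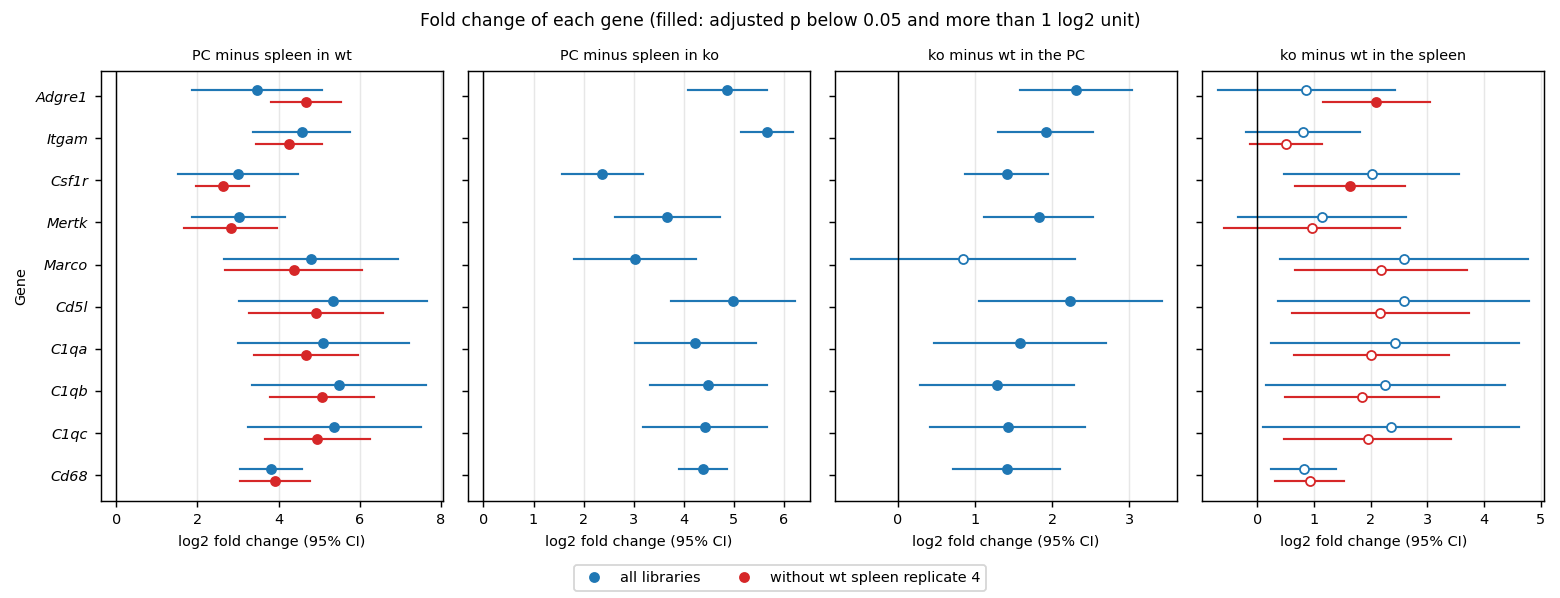
Log2 fold change of each of the 10 genes with its 95% confidence interval in 4 comparisons, from all libraries (blue) and without the library carrying the label NFKBIE-wt spleen replicate 4 (red). All points of the comparisons of PC with spleen lie above 2, 9 of 10 genes pass the test between genotypes in the PC, and in the spleen none does with all libraries, and Adgre1 and Csf1r do without that library.

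Per kilobase of transcript, which allows levels of different genes to be set side by side, C1qa was the most abundant member in the NFKBIE-wt PC with 112 ± 61.7 CPM per kilobase (SD, n = 4), followed by Cd5l with 94.3 ± 54.0. These neighbours did not differ beyond their spread. In the NFKBIE-ko PC the order of means was reversed, with Cd5l at 450.1 ± 64.1 and C1qa at 339.6 ± 80.5 CPM per kilobase. C1qc (213 ± 47.1), Cd68 (191 ± 22.2) and C1qb (188 ± 40.8) came next in the NFKBIE-ko PC, each within 1 SD of a neighbour in the order, followed by Itgam (118 ± 21.0) and Adgre1 (81.4 ± 14.8). Marco (32.0 ± 10.8), Csf1r (22.5 ± 4.91) and Mertk (7.43 ± 1.50) were the least abundant.

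Between genotypes in the PC, 9 of the 10 members were higher in NFKBIE-ko, by 2.44-fold for C1qb to 4.95-fold for Adgre1, and Marco did not pass the test. Of these calls, those of Adgre1, Itgam, Mertk and Cd68 held in every alternative fit, and those of the other 5 did not (given with the C1q genes). This comparison asks whether loss of NFKBIE in the leukemic cells went along with other levels of these macrophage genes in the peritoneal cells. The call was made in 9.97% of 12642 genes (and in 3.5% towards NFKBIE-wt), and the median log2 fold change was 1.50 for the members and -0.01 for all genes tested. In 9 of 10 members, all but Marco, the lowest NFKBIE-ko library exceeded the highest of NFKBIE-wt, which held for 21.2% of the genes.

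The largest differences were those of Adgre1, with 51.0 ± 18.7 CPM in NFKBIE-wt and 255 ± 44.0 CPM in NFKBIE-ko (SD, n = 4) and a log2 fold change of 2.31 (SE 0.31, adjusted p of 0.000671), and of Cd5l, with 193 ± 110.3 and 919 ± 131 CPM and a log2 fold change of 2.23 (SE 0.50, adjusted p of 0.0100). The lowest NFKBIE-ko library held more of either gene than the highest NFKBIE-wt library. Itgam rose from 147 ± 47.0 to 560.3 ± 98.8 CPM, by 1.92 (SE 0.27, adjusted p of 0.000671) on the log2 scale, and Mertk from 9.31 ± 3.97 to 33.4 ± 5.93 CPM, by 1.82 (SE 0.31, adjusted p of 0.00162). Csf1r rose by 1.41 (SE 0.24, adjusted p of 0.00155) and Cd68 by 1.41 (SE 0.30, adjusted p of 0.00642) on the log2 scale, from 49.8 ± 14.8 to 134 ± 22.7 CPM and from 92.5 ± 36.8 to 248.7 ± 28.4 CPM. Csf1r and Cd68 thus differed less between genotypes than Adgre1 in these values, a difference between genes that was not tested. Marco averaged 33.2 ± 21.7 CPM in NFKBIE-wt and 60.3 ± 20.2 CPM in NFKBIE-ko, with a log2 fold change of 0.84 (95% confidence interval -0.61 to 2.29, adjusted p of 0.314). Its groups overlapped, since NFKBIE-ko replicate 1 lay below NFKBIE-wt replicates 1 and 4.

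The C1q genes were higher in the NFKBIE-ko PC with less certainty. C1qa averaged 122 ± 67.1 CPM in NFKBIE-wt and 369 ± 87.5 CPM in NFKBIE-ko (log2 fold change of 1.58, SE 0.47, adjusted p of 0.0316), C1qb 193 ± 98.6 and 476 ± 103 CPM (1.28, SE 0.43, adjusted p of 0.0446) and C1qc 145 ± 72.9 and 394 ± 87.3 CPM (1.42, SE 0.43, adjusted p of 0.0309). The genotypes did not overlap for any chain, and the log2 fold change stayed above 1 without any single library. All 3 adjusted p-values rose above 0.05 without NFKBIE-wt PC replicate 3 (0.0821, 0.113 and 0.0833 for C1qa, C1qb and C1qc), without NFKBIE-ko PC replicate 2 (0.0757, 0.104 and 0.0761), without replicate 3 (0.0571, 0.0833 and 0.0575) and without replicate 4 of NFKBIE-ko (0.0587, 0.0808 and 0.0578), which left 6 members called. C1qb alone lost its call without replicate 4 of the NFKBIE-wt PC (0.0555) or replicate 1 of the NFKBIE-ko PC (0.0597). NFKBIE-wt PC replicate 2 was low in every member, and without it all 9 calls held, at smaller log2 fold changes. The calls also depended on the fit. With all 22 samples in 1 fit, 4 members stayed called, and Csf1r (adjusted p of 0.138), Cd5l (0.0730) and the C1q genes (0.205 for C1qa, 0.280 for C1qb and 0.244 for C1qc) lost the call. Less the 2 libraries that stood apart, neither of them from the PC, the same fit called 9 members. The C1q genes also lost the call without a filter on low counts (0.0533 for C1qa, 0.0746 for C1qb and 0.0539 for C1qc) and with the replicate number as a block (0.0926 for C1qa, 0.109 for C1qb and 0.0904 for C1qc), and C1qb and C1qc lost it with 1 transcript per gene (0.0700 and 0.0503).

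In the spleen, 0 of 10 members passed the test between genotypes with all libraries, where 1.4% of 12221 genes were called higher and 1.59% lower in NFKBIE-ko, and 7 had an unadjusted p below 0.05 (DESeq2 called 0 as well). The median log2 fold change of the members was 2.14, against -0.01 for all genes tested. The genotypes were separate, with NFKBIE-ko above, for 2 of 10 members, Csf1r and Cd68, as for 7.65% of the genes. Csf1r averaged 6.34 ± 4.15 CPM in NFKBIE-wt and 25.6 ± 14.98 CPM in NFKBIE-ko (SD, n = 4), and its log2 fold change was 2.01 (SE 0.69, adjusted p of 0.126). Cd68 averaged 6.67 ± 1.43 and 11.8 ± 3.87 CPM, with 0.82 (SE 0.25, adjusted p of 0.100). The C1q genes, Cd5l and Marco had log2 fold changes of 2.26 to 2.59 with wide intervals, such as 0.24 to 4.62 for C1qa (adjusted p of 0.179). Both groups were widely spread, with C1qa at 0 in the library carrying the label NFKBIE-wt spleen replicate 4 and at 4.45 CPM in NFKBIE-ko replicate 2, below the highest NFKBIE-wt library.

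Without the library carrying the label NFKBIE-wt spleen replicate 4, Adgre1 and Csf1r were called higher in the NFKBIE-ko spleen (2 of 10 members, where 3.03% of the genes were). Adgre1 then averaged 2.02 ± 0.281 CPM (SD, n = 3) against 8.68 ± 3.82 CPM (n = 4), with a log2 fold change of 2.10 (SE 0.42, adjusted p of 0.0142) in place of 0.86 (SE 0.69, adjusted p of 0.496). That of Csf1r was 1.64 (SE 0.43, adjusted p of 0.0387). The NFKBIE-ko cultures held Adgre1 at 20.6 to 28.7 CPM, and the source of its reads in the spleen was not tested. The other 8 members had adjusted p-values of 0.0564 (Cd68) to 0.410 (Mertk), and Adgre1 joined Csf1r and Cd68 as members without overlap, which 12.1% of the genes showed. Without that library DESeq2 called 5 members (Adgre1, Csf1r, Marco, Cd5l and C1qa), and 1 fit of all samples less that library and the one carrying the label NFKBIE-wt in vitro replicate 3 called 6 (Adgre1, Csf1r, Cd5l and the 3 C1q genes). Which members passed in the spleen thus changed with this library and with the fit.

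Differences between sites in the effect of genotype were tested in a fit of the 16 in vivo libraries. Of the 10 members 0 passed (0 with an unadjusted p below 0.05 and 0 with DESeq2), where 2.69% of 13137 genes did. The effect in the PC minus that in the spleen ranged on the log2 scale from -1.76 for Marco (95% confidence interval -3.98 to 0.47) to 1.42 for Adgre1 (-0.21 to 3.04), and the intervals of all 10 genes included 0. Without the library carrying the label NFKBIE-wt spleen replicate 4 the value of Adgre1 was 0.15, and Itgam was the 1 member called, with 1.35 (SE 0.39, adjusted p of 0.0420), where 3.12% of the genes were. In the separate fits the effect of genotype on Itgam was 1.92 in the PC and 0.51 in the spleen without that library.

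In vitro the members split into those with reads in every library and those near 0. Adgre1 was at 23.5, 21.3 and 2.43 CPM in NFKBIE-wt and 28.7, 23.9 and 20.6 CPM in NFKBIE-ko cultures, and Cd68 at 13.7, 8.02 and 8.69 and 8.41, 10.7 and 9.08 CPM. Itgam was at 8.08, 2.80 and 8.91 and 4.32, 6.66 and 3.18 CPM. Cd68 was higher in each culture than in each NFKBIE-wt spleen library, as was Adgre1 apart from the library carrying the label NFKBIE-wt in vitro replicate 3, while Itgam overlapped (spleen and cultures were not tested against each other). C1qa, C1qc and Marco were at 0 counts in all 3 NFKBIE-ko cultures, which allows up to 0.113 to 0.124 CPM per library, and C1qb and Cd5l were at 0 to 0.269 CPM there. Csf1r was at 2.37, 0.154 and 11.9 CPM in NFKBIE-wt and 0.788, 0.770 and 0.619 CPM in NFKBIE-ko cultures, and Mertk at 0.241, 1.31 and 1.12 and 0.488, 0.770 and 0.248 CPM. Only 5 of the 10 members passed the filter on low counts (Adgre1, Itgam, Csf1r, Mertk and Cd68), 0 of them passed the test with edgeR (0 with an unadjusted p below 0.05, and 0 of the 7 members to which DESeq2 gave an adjusted p), and 0.0341% of 11722 genes did. Without the library carrying the label NFKBIE-wt in vitro replicate 3 the count was 0 again, with 0.0759% of the genes called.

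**Figure D3:**
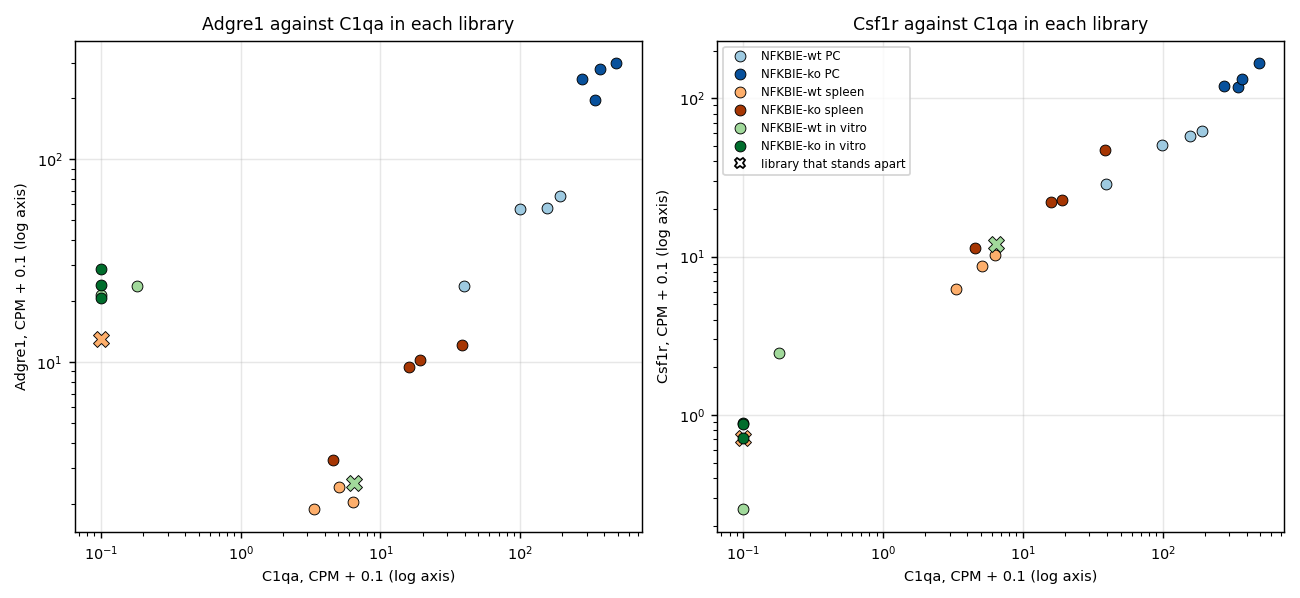
Adgre1 (left) and Csf1r (right) against C1qa, in CPM plus 0.1 on log axes, in each of the 22 libraries, with the libraries that stood apart from their labels as crosses. The library carrying the label NFKBIE-wt spleen replicate 4 and all cultures but the library carrying the label NFKBIE-wt in vitro replicate 3 hold Adgre1 at 12.8 to 28.7 CPM with C1qa at or near 0.

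Ratios between members within a library are given as a description, with no test. They were computed to C1qa in the 15 in vivo libraries with at least 50 counts of C1qa. The ratio of Cd5l to C1qa was 1.38 to 1.82 in the NFKBIE-wt PC and 2.27 to 3.04 in the NFKBIE-ko PC, without overlap, and 0.825 to 1.64 and 1.46 to 1.50 in the NFKBIE-wt and NFKBIE-ko spleen. This separation of the genotypes in the PC, with NFKBIE-ko above, was found for the ratio to C1qa of 0.661% of 11649 genes. The ratio of C1qb to C1qa was lower in the NFKBIE-ko PC (1.24 to 1.39) than in the NFKBIE-wt PC (1.50 to 1.81), again without overlap, but so was that of 79.9% of the genes. In the spleen it was 0.975 to 1.29 in NFKBIE-wt and 1.02 to 1.15 in NFKBIE-ko. The ratio of C1qc to C1qa was 1.11 to 1.32 and 1.03 to 1.11 in the PC.

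Ratios of the receptors to C1qa were compared between the sites in the same way. Csf1r was at 0.323 to 0.730 times C1qa in the NFKBIE-wt PC and 0.341 to 0.434 times in the NFKBIE-ko PC, but at 1.61 to 1.89 and 1.18 to 2.54 times in the NFKBIE-wt and NFKBIE-ko spleen. All 7 spleen libraries thus lay above all 8 PC libraries, but so they did for 49.7% of 11629 genes, with C1qa itself higher in the PC, so the ratio shows nothing particular to Csf1r. Marco was at 0.1499 to 0.342 and 0.146 to 0.179 times C1qa in the PC and at 0.281 to 0.419 and 0.225 to 0.428 times in the spleen, and over both genotypes together the sites overlapped. Adgre1 was at 0.342 to 0.600 times C1qa in the NFKBIE-wt PC and 0.573 to 0.901 times in the NFKBIE-ko PC, with overlap, and its ratios of 0.312 to 0.550 in the NFKBIE-wt and 0.312 to 0.717 in the NFKBIE-ko spleen overlapped with those of the PC of the same genotype. Itgam in the NFKBIE-ko spleen ranged from 0.374 to 2.33 times C1qa, the widest range of the members there, and granulocytes and monocytes also express this gene. Itgam also had reads in every culture, at 2.80 to 8.91 CPM in NFKBIE-wt and 3.18 to 6.66 CPM in NFKBIE-ko.

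**Figure D4:**
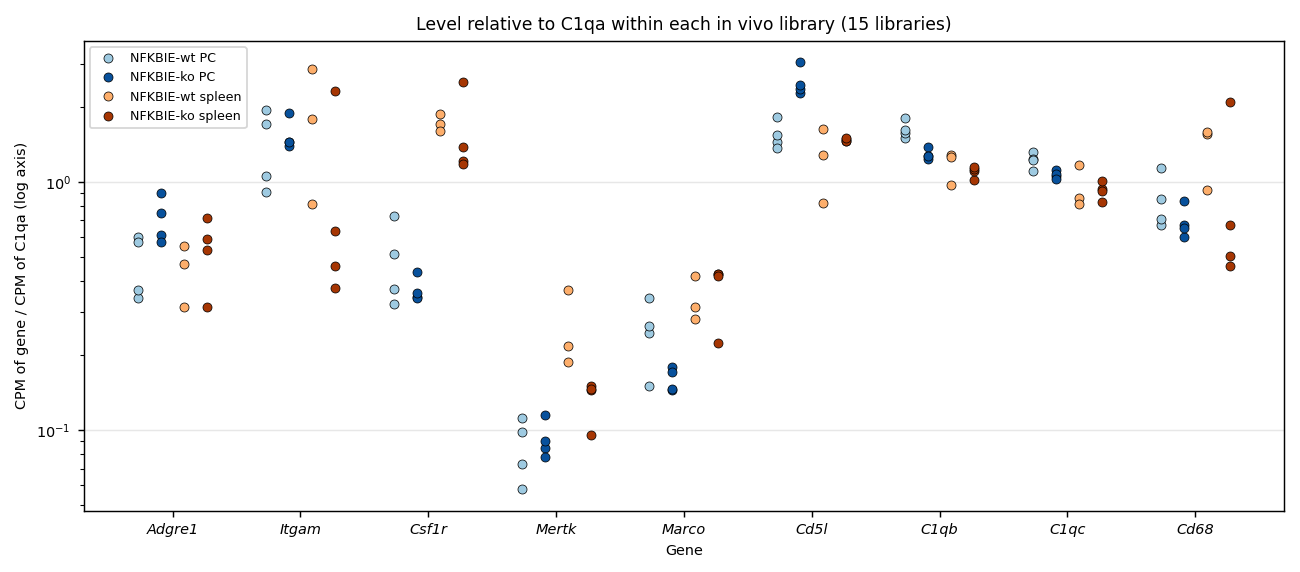
Level of 9 genes divided by that of C1qa in the same library (log axis), for the 15 in vivo libraries with at least 50 counts of C1qa, by group. Cd5l stands at 2.27 to 3.04 in the NFKBIE-ko PC and at 1.38 to 1.82 in the NFKBIE-wt PC.

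Most members were carried by 1 transcript. Cd5l, C1qa and C1qb had 1 listed transcript each, and the leading transcript held 99.9% of the counts of C1qc, 99.5% of Marco, 98.4% of Cd68, 95.8% of Csf1r, 93.5% of Mertk and 92.0% of Adgre1 over all libraries. Itgam was shared between ENSMUST00000064821 (41.7%, 4776 bases) and ENSMUST00000106242 (57.8%, 4773 bases), and its canonical transcript held 0.127%. The share of the first was 41.8% in the NFKBIE-wt and 41.5% in the NFKBIE-ko PC.

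The genes whose pattern over the 16 in vivo libraries was most like that of a member, by the root mean square difference of log2(CPM + 1) centred on each gene's mean, were taken from 9619 protein-coding genes with a mean of at least 5 CPM. For C1qa they were Sdc3 (0.412), Lrp1 (0.578) and Trf (0.646), for C1qb Selenop (0.575), Sdc3 (0.591) and Lrp1 (0.639), for C1qc Sdc3 (0.508), Lrp1 (0.599) and Selenop (0.623) and for Cd5l Sdc3 (0.669), Selenop (0.769) and Lyz2 (0.822). The C1q chains were nearer to each other than to any of these, with 0.129 between C1qb and C1qc and 0.182 between C1qa and C1qc. Itgam was nearest to Bst1 (0.315), Msr1 (0.342) and F10 (0.457), Csf1r to Lcp2 (0.356), Fcgr4 (0.489) and Tgm2 (0.494) and Mertk to Ctsb (0.286), Aoah (0.301) and Slc7a8 (0.317). Among the nearest to Marco were Fcna (0.488) and Fcgr4 (0.533), among those to Cd68 Rhoc (0.301) and Fcgr3 (0.312), and those nearest to Adgre1 were Slc16a3 (0.612), Rhoc (0.640) and Gnb3 (0.667). Without the library carrying the label NFKBIE-wt spleen replicate 4, Adgre1 was nearest to Sdc3 (0.443), Lyz2 (0.522) and Pmp22 (0.575) and Csf1r to Ms4a7 (0.319), Dram1 (0.325) and Slc11a1 (0.347).

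Partners of the members in signalling and uptake moved as follows. Csf1, a ligand of the receptor encoded by Csf1r, rose in NFKBIE-ko in the PC by 1.33 (adjusted p of 0.000290) on the log2 scale, with 6.16 to 8.17 CPM in NFKBIE-wt and 13.3 to 25.0 CPM in NFKBIE-ko libraries, and in the spleen by 1.18 (adjusted p of 0.0198), with 5.62 to 9.55 CPM in NFKBIE-wt and 15.3 to 19.4 CPM in NFKBIE-ko libraries. It did not differ by the test between PC and spleen (-0.05 (adjusted p of 0.885) in NFKBIE-wt, 0.08 (adjusted p of 0.732) in NFKBIE-ko). In the cultures Csf1 was at 6.89 to 10.1 CPM in NFKBIE-wt and 8.78 to 9.54 CPM in NFKBIE-ko. Of the 5 listed genes of the CSF1 axis, 4 were tested in the PC, where Csf3r, the receptor of granulocytes for G-CSF, fell by 1.36 on the log2 scale in NFKBIE-ko. Itgb2, the β chain that pairs with CD11b, rose in the NFKBIE-ko PC by 1.54 (adjusted p of 3.81e-05), with 93.4 to 147 CPM in NFKBIE-wt and 334 to 441 CPM in NFKBIE-ko libraries, and its effect was larger in the PC than in the spleen by 1.21 (adjusted p of 0.00219). Gas6, which bridges MERTK to dying cells, rose in the NFKBIE-ko PC by 1.92 (adjusted p of 0.000137), with 0.858 to 1.50 CPM in NFKBIE-wt and 3.68 to 5.39 CPM in NFKBIE-ko libraries. Of the kinases related to MERTK, Axl rose there by 1.10 (adjusted p of 0.0250) and Tyro3, at 0.741 to 1.27 CPM in NFKBIE-wt, fell by 1.43 (adjusted p of 0.0166).

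Of 14 myeloid partner genes, 13 were called higher in the PC than in the spleen in NFKBIE-wt and 14 in NFKBIE-ko, with a median log2 fold change of 3.03 and 3.56. In the PC 9 were called higher in NFKBIE-ko (median 1.27), among them Gpnmb (2.52), the lysozyme gene Lyz2 (2.45) and Aif1 (1.95), and in the spleen 0 of 12 tested were (3 of 13 without the library carrying the label NFKBIE-wt spleen replicate 4). Of the apoptotic cell uptake and scavenger receptor genes, 7 of 14 tested were called higher in the PC in NFKBIE-wt and 7 of 15 in NFKBIE-ko, led by the scavenger receptors Msr1 (5.79 and 6.67) and Stab1 (4.83 and 4.76). Between genotypes in the PC 5 of 15 were higher and 1 was lower, Tyro3. Over all genes tested, 7.92% were called higher and 3.21% lower in the PC than in the spleen in NFKBIE-wt. In NFKBIE-ko these shares were 15.6% and 6.46%. Between genotypes, 9.97% were called higher and 3.5% lower in the NFKBIE-ko PC, and 1.4% and 1.59% in the NFKBIE-ko spleen. Counts of the lists here and below are to be read beside these shares.

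Of the macrophage transcription factors, Maf, which acts in mature macrophages, was at 5.09 to 17.8 CPM in the NFKBIE-wt PC and at 31.3 to 46.1 CPM in the NFKBIE-ko PC, a difference of 1.62 (adjusted p of 0.00516) on the log2 scale. It had no count in the NFKBIE-ko cultures. Spi1, which encodes PU.1 and is also expressed by B cells, was at 29.2 to 32.8 CPM in those cultures and at 77.7 to 102 CPM in the NFKBIE-ko PC. Of the list, 6 of 11 tested were called higher in the PC in NFKBIE-wt, 7 of 12 higher and 2 lower in NFKBIE-ko, and 5 of 12 higher and 1 lower, Id3 (-1.19), in the NFKBIE-ko PC. In the spleen 1 of 11 was called between genotypes.

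Markers of peritoneal macrophages were high in the PC. Of the list 12 of 14 tested in NFKBIE-wt and 14 of 16 in NFKBIE-ko were called higher there, with median log2 fold changes of 5.23 and 6.20. Gata6 was at 0.159 to 1.24 CPM in the NFKBIE-wt and 2.80 to 4.01 CPM in the NFKBIE-ko PC (2.17, adjusted p of 0.00269), and at no more than 0.0803 CPM in any spleen library. Lyve1 (7.65 and 7.999), Saa3 (7.89 and 8.93) and Prg4 (7.81 and 8.33) had large log2 fold changes, PC over spleen, in NFKBIE-wt and NFKBIE-ko, which are fitted values and depend on the prior count where spleen libraries were near 0. Icam2, which B cells express as well, had values of 0.06 (adjusted p of 0.808) and 0.65 (adjusted p of 0.00131). Between genotypes in the PC 7 of 16 were called higher, and in the spleen 1 of 7, Timd4, a receptor for phosphatidylserine on resident macrophages, at 0 to 0.161 CPM in NFKBIE-wt and 0.866 to 4.25 CPM in NFKBIE-ko (fitted log2 fold change against a group near 0 of 4.93, adjusted p of 0.0224).

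Markers of splenic macrophages did not follow the members as a group. In NFKBIE-ko 4 of 9 were called lower in the PC than in the spleen, Slc40a1, the iron exporter (-4.39), Vcam1 (-3.53), Spic (-2.82) and Treml4 (-2.28), and 4 were called higher, among them Siglec1 (4.51), a receptor of sialylated particles. In NFKBIE-wt 4 of 9 were higher and 0 lower (1 lower without the library carrying the label NFKBIE-wt spleen replicate 4). Spic was at 0.425 to 3.04 CPM in the NFKBIE-wt and 0.670 to 8.997 CPM in the NFKBIE-ko spleen, and at 0.687 to 1.17 and 0.396 to 0.977 CPM in the PC. The cultures also held Spic, at 0.115 to 2.21 CPM in NFKBIE-wt and 1.11 to 2.66 CPM in NFKBIE-ko. Vcam1 differed in its genotype effect between the sites, by -2.92 (adjusted p of 0.0117) on the log2 scale, being lower in the NFKBIE-ko PC (-1.19, adjusted p of 0.0105) and at 12.8 to 45.6 and 47.7 to 192 CPM in the NFKBIE-wt and NFKBIE-ko spleen. Between genotypes in the PC 3 of 9 were called higher and 2 lower, and in the spleen 0 of 8.

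Of the other complement genes, C3, Cfb, C1ra and Cfp were called higher in NFKBIE-ko at both sites. C3, the central component of all pathways, rose in NFKBIE-ko, with 19.7 to 55.1 CPM in NFKBIE-wt and 374 to 894 CPM in NFKBIE-ko libraries in the PC (3.81, adjusted p of 0.000300) and with 0.425 to 5.18 CPM in NFKBIE-wt and 13.5 to 119 CPM in NFKBIE-ko libraries in the spleen (3.94, adjusted p of 0.0303). Cfb, factor B of the alternative pathway, rose by 2.32 (adjusted p of 0.0144) in the PC and by 4.85 (adjusted p of 0.0279) in the spleen. C1ra, one of the proteases that C1q activates, rose in NFKBIE-ko in the PC (1.02, adjusted p of 0.0161) and the spleen (1.28, adjusted p of 0.0205), and was at 4.64 to 8.71 CPM in the NFKBIE-wt and 14.4 to 14.6 CPM in the NFKBIE-ko cultures, where C1qa and C1qc were at 0 in NFKBIE-ko. C1s1, the other protease, was at 0.278 to 2.35 CPM in the NFKBIE-wt PC and 0 to 1.31 CPM in the NFKBIE-ko PC (-0.998, adjusted p of 0.351). C4b, which is cleaved next in the classical pathway, rose in the NFKBIE-ko PC by 2.09 (adjusted p of 0.0161). In all, 8 of 15 complement genes other than C1q were called higher in the NFKBIE-ko PC (9.97% of all genes tested) and 4 of 12 in the NFKBIE-ko spleen (1.4%). PC over spleen, 9 of 13 were called higher and 1 lower in NFKBIE-wt, and 9 of 13 higher in NFKBIE-ko.

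**Figure D5:**
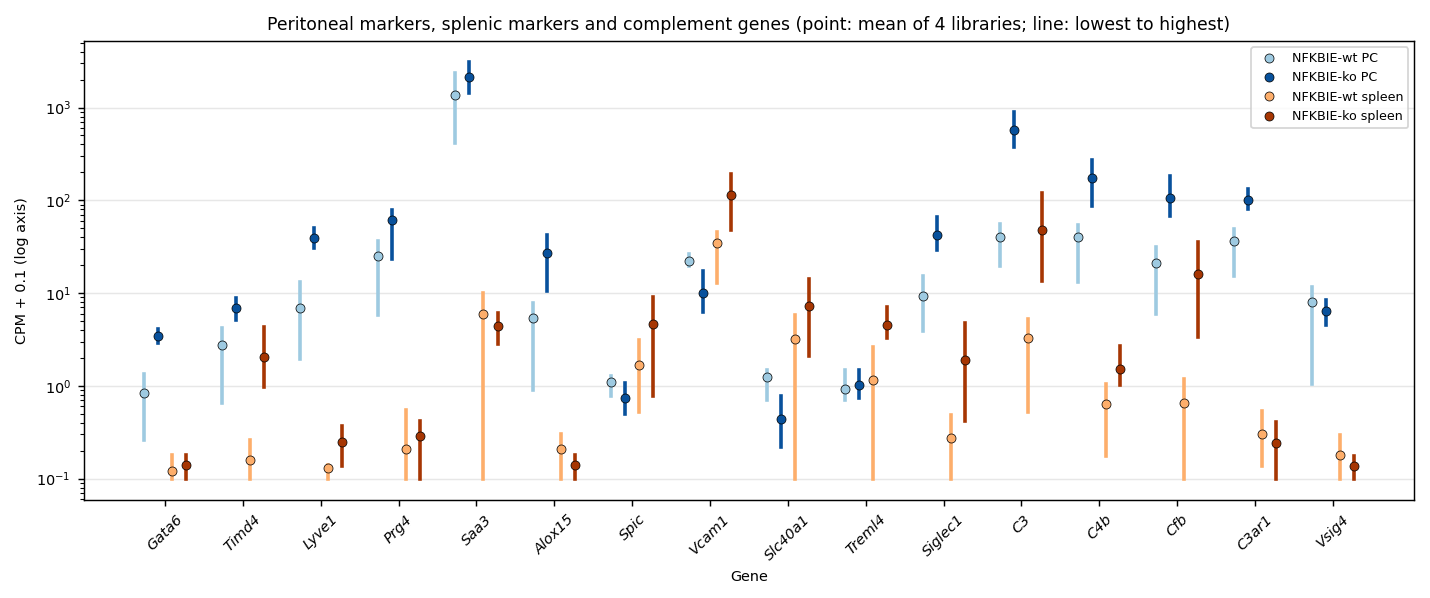
Level of 16 peritoneal markers, splenic markers and complement genes (CPM plus 0.1, log axis) in the 4 in vivo groups, with a point for the mean of 4 libraries and a line from the lowest to the highest. C3 stands at 374 to 894 CPM in the NFKBIE-ko PC and at 19.7 to 55.1 CPM in the NFKBIE-wt PC, and Gata6 is near 0 in all spleen libraries.

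Markers of other cell types moved with the groups as well, and their part in the results was not tested. Summed granulocyte markers were at 162 to 472 CPM in the NFKBIE-wt and 31.4 to 48.0 CPM in the NFKBIE-ko PC, with 0 of 8 genes called higher and 6 lower, the opposite direction to Itgam, which granulocytes share. In the spleen they were at 63.4 to 405 CPM in NFKBIE-wt without the library carrying the label replicate 4, which held 0.155 CPM, and 96.8 to 263 CPM in NFKBIE-ko. Of the monocyte markers 4 of 7 were called higher in the PC than in the spleen in either genotype (1 lower in NFKBIE-ko), and 1 of 7, F13a1 (2.49), was called between genotypes in the PC, with sums of 1477 to 1991 and 1465 to 1908 CPM. Summed erythroid markers were at 216 to 1456 CPM in the NFKBIE-wt spleen without replicate 4, 41.9 to 641 CPM in the NFKBIE-ko spleen and 5.77 to 48.1 and 4.00 to 51.6 CPM in the PC. T cell markers were called higher in the NFKBIE-ko PC for 5 of 7 genes (55.8 to 76.0 against 168 to 180.5 CPM in sum) and dendritic cell markers for 2 of 5 (7.04 to 10.6 against 17.5 to 20.7 CPM). Cultures of NFKBIE-wt and NFKBIE-ko held T cell sums of 92.1 to 234 and 146 to 160 CPM. Their dendritic cell sums were 9.21 to 13.1 and 19.3 to 21.2 CPM. Cultured cells thus held reads of these genes as well, and the T cell sums of the NFKBIE-wt cultures lay above those of the NFKBIE-wt PC. The source of these reads was not tested. B cell markers, which the leukemic cells express, were at 2748 to 2942 and 3271 to 3472 CPM in the PC, with 1 of 7 called, and at 1642 to 2073 and 1400.3 to 1893 CPM in the spleen, with 0 of 7 called. Of 4 mesothelial, stromal and endothelial markers tested, Col3a1 (-3.46) and Dcn (-2.14) were called lower in the NFKBIE-ko PC and 0 higher. The sum of that list went the other way, with 77.1 to 94.7 CPM in the NFKBIE-wt and 102 to 121 CPM in the NFKBIE-ko PC. Of 2 mast cell and eosinophil markers tested, Siglecf was called higher there (3.47).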

How the data were processed

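RNA-seq was analysed in 22 libraries of 6 groups. The authors deposited 1 table of counts estimated for each transcript (expected counts, of which 69.5% of values are not whole numbers). Per the labels, CASAVA, Salmon 1.8, GRCm39 and DESeq2 were used. Every listed transcript is above 0 in at least 5 samples, a filter that can remove transcripts of 1 group. Here 62147 of 62492 transcripts were matched to genes of GENCODE M39 (0.619% of counts were not), summed to 17023 genes and rounded. Columns of no sample numbered 0. Totals were 24036763 to 26581304 counts per library, and no pair of replicates held identical values. Limits from counts cover counting error only.

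Each comparison was fitted on its own groups, and the difference between sites on the 16 in vivo libraries, with edgeR 4.0.16 (filterByExpr, TMM, quasi-likelihood test) in R 4.3.3, with Benjamini-Hochberg adjustment over all genes tested. Calls needed a log2 fold change beyond 1 besides an adjusted p below 0.05. Scripts were tested on simulated data. Figures were drawn with matplotlib 3.10.9. Alternatives were other size factors, no filter, DESeq2 1.42.0, 1 fit of all samples, 1 transcript per gene, the replicate number as a block and leaving out each library. Fits less the 2 libraries that stood apart, and likeness over 15 libraries, were added after seeing the data.

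All members were named. Of each list the called genes with the largest changes, at most 3 per direction with a group mean of at least 5 CPM, and a set of defining genes were eligible to be named. The members and the 15 lists, with 145 genes outside the members, were chosen with earlier results of these data known. Transcripts of overlapping genes could share reads. Some genes that this rule would name are not reported here.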

Additional observations from a re-analysis of the deposited data

Results flagged for a closer look

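Of 40 groups of 4 libraries examined (10 genes in the 4 in vivo groups), 3 held a library far from the others by Dixon's criterion, and chance flags about 1 group in 20. Adgre1 was at 12.8 CPM in the library labelled NFKBIE-wt spleen replicate 4, where the other libraries of the group held 1.78 to 2.33 CPM. Itgam was at 76.5 CPM in NFKBIE-wt PC replicate 2, against 164 to 175 CPM in the others. Cd68 was at 17.5 CPM in NFKBIE-ko spleen replicate 1, against 9.33 to 10.7 CPM in the others.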

How the results depend on the processing

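Of the member values under the alternatives, 167 of 170 for PC against spleen in NFKBIE-wt (3 lost the call), 160 of 160 in NFKBIE-ko, 133 of 160 between genotypes in the PC (27 lost the call), 157 of 170 in the spleen (13 gained it), 74 of 75 in vitro (1 changed sign) and 243 of 250 for the difference between sites (2 gained the call, 5 changed sign) kept direction and call. The causes were not tested. The sign changed for Cd68 in vitro without NFKBIE-wt in vitro replicate 1 (0.156, with -0.247 to 0.156 over single libraries left out), and for the difference between sites of Cd5l without NFKBIE-wt spleen replicate 4 (0.00627), without replicate 1 of the NFKBIE-ko spleen (0.213, with -1.08 to 0.213 over single libraries left out), under the replicate block (0.0206), with all samples less the 2 libraries that stood apart in 1 fit (0.0597) and with DESeq2 less the library that stood apart (0.0726).

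With 1 transcript per gene, 803 genes were called in place of 1377 between PC and spleen in NFKBIE-wt. With all 22 samples in 1 fit, 4 members in place of 9 were called between genotypes in the PC, with adjusted p-values of 0.205 for C1qa, 0.280 for C1qb and 0.244 for C1qc. Less the 2 libraries that stood apart, that fit called 9 members. Between genotypes in the spleen 365 genes were called, and 723 with DESeq2, 661 with all 22 samples in 1 fit, 78 with 1 transcript per gene, 1020 (6 members) with all samples less 2 libraries and 1031 (5 members) with DESeq2 less the library that stood apart. In vitro 4 genes were called, and 156 with DESeq2, 189 with all 22 samples, 0 with 1 transcript per gene, 133 with all samples less 2 libraries and 143 with DESeq2 less 1 library. For the difference between sites 354 genes were called, and 625 with DESeq2, 76 with 1 transcript per gene and 817 (1 member) with DESeq2 less the library that stood apart.

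Leaving out each library in turn gave 1015 to 1823 genes between PC and spleen in NFKBIE-wt, 2794 to 3056 in NFKBIE-ko, 1609 to 1817 between genotypes in the PC, 116 to 793 in the spleen, 0 to 391 in vitro and 212 to 588 for the difference between sites. Members called were 10 to 10, 10 to 10, 6 to 9, 0 to 2, 0 to 0 and 0 to 1.

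The labels do not say whether samples that share a replicate number come from the same mouse, and not every such pair had a correlation above 0.1 in any comparison (in NFKBIE-ko between sites 3 of 4 had: 0.149, 0.152 and 0.218, with replicates 3 and 4 best matched to their own number), so the fits without a block were kept. Correlations of the deviations from the group means were -0.161 to 0.213 (NFKBIE-wt) and -0.0517 to 0.218 (NFKBIE-ko) between sites and -0.214 to 0.049 (PC), -0.32 to 0.038 (spleen) and -0.014 to 0.167 (in vitro) between genotypes. With the replicate number as a block 10, 10, 6, 0, 0 and 0 members were called, C1qa (adjusted p of 0.0926), C1qb (0.109) and C1qc (0.0904) being lost in the PC, and 89 genes were called between genotypes in the spleen and 0 in vitro. In vitro the C1q genes, Cd5l and Marco did not pass the filter on low counts, and the fits that kept them called none of them.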
